A study of Mus musculus with 9 samples.

Results

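The IFIT genes encode interferon-induced proteins with tetratricopeptide repeats, a fold of stacked helical hairpins that forms an RNA-binding pocket. Ifit1, Ifit2, Ifit3 and Ifit3b were chosen by name, with earlier results of these data known. They were 4 of 19752 genes measured in peritoneal macrophages after interferon treatment. Their places among all genes and their p-values below do not come from a choice made blind to the data. Each was read through the probe set that carried that symbol alone, and each had exactly 1 such probe set on the array: 10462623 for Ifit1, 10462613 for Ifit2, 10462618 for Ifit3 and 10462621 for Ifit3b.

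Messenger RNA was measured on 9 single-colour Affymetrix arrays of macrophages sorted from the peritoneal lavage of C57BL/6 males aged 6 weeks. Mice in the IFNa group (n = 4) received 10000 U of recombinant interferon alpha under the skin and were killed 2 h later. Mice in the IFNg group (n = 2) received 8000 U of recombinant interferon gamma by the same route and for the same time. The untreated group (n = 3) received nothing, and no group injected with vehicle alone was included, so interferon and injection cannot be told apart in a comparison with untreated. The treated samples were labelled as F4/80+ ICAM2+ and the untreated samples as F4/80+ only, whereas the design text names F4/80 and ICAM for every sample. If the labels hold, sorting and treatment cannot be told apart in a comparison with untreated. No label says whether a sample came from 1 animal or from a pool. All p-values therefore measure the spread between these samples, which may be technical.

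IFIT proteins sit at the far end of the interferon response. Type I interferons such as IFNa bind the receptor of Ifnar1 and Ifnar2 and activate the factor ISGF3, whose subunits include Stat2 and Irf9 and which binds the interferon-stimulated response element (ISRE) in target promoters. IFNg, the type II interferon, uses the receptor of Ifngr1 and Ifngr2 and acts largely through promoters that hold the gamma-activated site (GAS). Ifit1 protein binds RNA whose cap lacks the methyl mark of the host's own messages, and Ifit1 and Ifit2 also bind the translation initiation factor eIF3. Ifit3 protein pairs with other family members, and Ifit3b is a close copy of Ifit3 in the mouse genome.

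The start regions of the genes are shown because the interferon routes meet at them and because those of Ifit3 and Ifit3b are nearly the same in their aligned bases. Each RefSeq window (GRCm38.p6) held 300 bases, from 250 bases before to 50 bases after an annotated start, and is written along the gene's own strand. Capitals mark matches to the ISRE core, which is GAAA, any 2 bases and GAAA again, searched on both strands. The matches in the 3 windows that hold one lie on the strand opposite to the gene, so they read there as the reverse complement.
Ifit1 (chr19:34640639-34640938, plus strand): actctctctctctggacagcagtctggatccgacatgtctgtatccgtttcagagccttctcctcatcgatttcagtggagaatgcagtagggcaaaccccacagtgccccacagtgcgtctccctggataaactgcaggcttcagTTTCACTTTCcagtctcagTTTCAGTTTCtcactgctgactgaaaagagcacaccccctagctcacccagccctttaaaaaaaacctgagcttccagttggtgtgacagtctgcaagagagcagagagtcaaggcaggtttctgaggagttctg
Ifit3 (chr19:34583279-34583578, plus strand): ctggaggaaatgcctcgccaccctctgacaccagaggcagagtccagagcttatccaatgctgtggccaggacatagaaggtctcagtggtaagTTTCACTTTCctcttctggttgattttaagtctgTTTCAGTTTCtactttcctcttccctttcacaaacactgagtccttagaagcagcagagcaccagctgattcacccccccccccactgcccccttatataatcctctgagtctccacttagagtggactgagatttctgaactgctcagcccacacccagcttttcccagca
Ifit3b (chr19:34607707-34608006, plus strand): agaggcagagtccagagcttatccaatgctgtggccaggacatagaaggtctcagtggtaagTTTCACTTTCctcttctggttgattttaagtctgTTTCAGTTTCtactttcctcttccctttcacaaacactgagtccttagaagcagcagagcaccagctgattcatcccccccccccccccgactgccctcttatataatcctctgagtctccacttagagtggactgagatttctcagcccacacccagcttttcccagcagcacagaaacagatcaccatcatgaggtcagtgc
Ifit2, first start (chr19:34550444-34550743, plus strand): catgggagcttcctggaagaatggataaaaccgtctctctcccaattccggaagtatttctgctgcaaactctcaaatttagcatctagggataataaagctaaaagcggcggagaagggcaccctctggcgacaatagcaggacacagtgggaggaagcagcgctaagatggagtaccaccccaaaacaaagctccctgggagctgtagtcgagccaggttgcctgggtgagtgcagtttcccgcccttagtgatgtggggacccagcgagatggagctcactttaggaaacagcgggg

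Ifit1, Ifit3 and Ifit3b each held 2 matches to the ISRE core. Those of Ifit1 lay 104 to 95 and 85 to 76 bases before the start, those of Ifit3 156 to 147 and 122 to 113 bases, and those of Ifit3b 188 to 179 and 154 to 145 bases. The letters of the matches were the same in all 3 genes, TTTCACTTTC followed by TTTCAGTTTC. Among 32851 RefSeq windows of this length, 1131 (3.44%) held at least 1 match and 74 (0.225%) held 2 or more. Ifit2 had 2 annotated starts, and neither window held this core. Only exact matches within these windows were sought, so an ISRE with other letters or at another place would go unseen. The absence of a match therefore does not show that Ifit2 lacks an ISRE. The first held a GAS core (TTCNNNGAA, searched on both strands) 241 to 233 bases before the start, a motif found in 8.30% of all windows. A match describes letters only, and binding was not measured in these samples. Of the bases that could be aligned between the windows of Ifit3 and Ifit3b, 259 of 260 were identical. Bases opposite a gap were left out of this count. Ifit3 reads gatttctgaactgctcagccc where Ifit3b reads gatttctcagccc, and the run of c before the start differs in length. The probes' own sequences were not used here, and how far the probe set of each gene also takes up RNA of its copy was not tested.

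**Figure D1:**
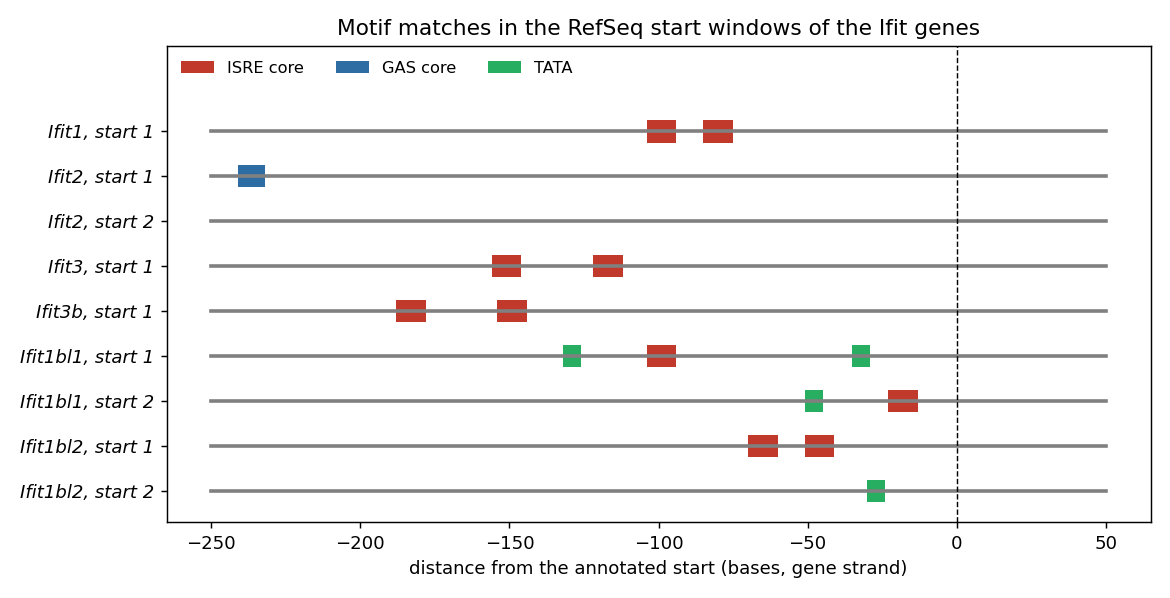
Motif matches in the RefSeq start windows of the Ifit genes, by distance from the annotated start in bases along the gene's strand (horizontal axis), with 1 row per annotated start. Red boxes are ISRE core matches, blue boxes GAS core matches and green boxes matches to the TATA motif TATAAA (gene strand). Ifit1, Ifit3 and Ifit3b each show 2 red boxes upstream of the start, and Ifit2 shows none at either start.

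The check of the cells came first. Of 14 measured markers of large peritoneal macrophages, 13 did not pass the test in either comparison with untreated, and their summed intensity was 100043 to 105108 on IFNa arrays, 98930.5 to 103638 on IFNg arrays and 104676 to 107653 on untreated arrays. The gene of the F4/80 antigen, Adgre1, changed by a log2 of 0.04 ± 0.10 after IFNa and 0.01 ± 0.12 after IFNg, and Icam2 by -0.24 ± 0.14 and 0.05 ± 0.17. Gata6, the transcription factor that defines this macrophage type, fell by 1.05 ± 0.17 after IFNa and by 1.16 ± 0.21 after IFNg (adjusted p = 0.00997 and 0.0242). Its call was lost without untreated replicate 2 after IFNa (adjusted p = 0.0641), and without IFNg replicate 1 or 2 or untreated replicate 2 or 3 after IFNg (0.0601 to 0.337). Of all 19752 genes, 169 passed as lower after IFNa and 22 after IFNg in the same model. With Gata6, 4 of the 14 had an unadjusted p under 0.05 by limma after IFNa and 3 after IFNg. The share of all genes at that threshold is not given here, so these counts are not read as many or few. Timd4 went the other way from Gata6, by 0.25 ± 0.11 after IFNa and 0.42 ± 0.13 after IFNg (adjusted p = 0.376 and 0.266). Cebpb changed by -0.48 ± 0.17 after IFNa (0.254) and -0.01 ± 0.20 after IFNg (0.990). Of 5 measured markers of plasmacytoid dendritic cells, the main producers of type I interferon, only Tcf4 rose after IFNa (0.73 ± 0.13, adjusted p = 0.0163), a call lost without IFNa replicate 1 or 3 (0.0575 and 0.0551). The summed intensity of these 5 was 1773 to 1998 on IFNa arrays, 1246 to 1293 on IFNg arrays and 1244 to 1469 on untreated arrays. No measured marker of B cells (7), T and NK cells (9), monocytes with small macrophages and dendritic cells (6), mast cells (6), neutrophils and eosinophils (7) or mesothelial and stromal cells (7) passed. All 6 markers of monocytes with small macrophages and dendritic cells had changes below 0 after both interferons, from -0.26 to -0.06 after IFNa and -0.26 to -0.07 after IFNg, and they summed to 1487 to 1863 on IFNa arrays and 1716 to 1895 on IFNg arrays, both below the 1942 to 2039 on untreated arrays. Mast cell markers summed to 343 to 407 on IFNa arrays and 336 to 339 on IFNg arrays, against 393 to 536 on untreated arrays. B cell markers summed to 2247 on the array of IFNa replicate 2, against 1159 or less on the other IFNa arrays, 763 to 848 on IFNg arrays and 927 to 1216 on untreated arrays. The part of other cells in the Ifit results was not tested, and in bulk samples fewer cells of a type cannot be told apart from less RNA per cell. If the sorting labels hold, sorting cannot be told apart from treatment in these marker values either.

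The arrays themselves were close in level and unequal in spread. Median intensity ran from 162 to 178. The upper quartile lay a log2 of 2.06 above the lower quartile on the array of IFNa replicate 4 and 2.18 on that of untreated replicate 1, against 2.60 to 2.96 on the other 7, and these arrays had the lowest mean correlation with the rest (0.956 and 0.961, against 0.976 to 0.982). Intensities below are robust multi-array averages (RMA) on a linear scale. They compare a gene between arrays and not a gene with another gene, since each probe set has its own response. Log2 changes are given with their standard error from a limma model of the 3 groups, with Benjamini-Hochberg adjustment over all 19752 genes. A gene was called at an adjusted p under 0.05. Counts at an unadjusted p under 0.05 stand without the share over all genes, so they are not read as more or fewer than usual.

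All 4 genes rose after IFNa, by between 30.9-fold and 84.1-fold. They took places 1, 2, 4 and 12 among 19752 genes ordered by the size of the rise. Over all genes, 1.79% were called higher after IFNa, and 16 genes reached 16-fold. Every IFNa array lay above every untreated array for each of the 4, an order seen in 3.68% of all genes. The median change over the 4 genes was a log2 of 5.86, against -0.02 over all genes.

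Ifit1, the cap sensor of the family, had intensities of 8738, 8140, 8707 and 10989 on the IFNa arrays, against 85.1, 139 and 189 on the untreated arrays. Every IFNa array lay far above every untreated array, and the untreated arrays were themselves spread 2.22-fold, with replicate 1 lowest. The log2 change was 6.12 ± 0.25 (69.4-fold, 95% interval 47.1 to 102, adjusted p = 1.58e-06 by limma).

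Ifit3 had the largest rise of the 19752 genes. Its intensities were 5957, 7007, 6680 and 8446 on the IFNa arrays, against 63.1, 81.9 and 110.2 on the untreated arrays. The groups did not overlap, and replicate 1 was again the lowest untreated array. The change was 6.39 ± 0.19 on the log2 scale (84.1-fold, 62.5 to 113, adjusted p = 2.45e-07 by limma).

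Ifit2, which in human cells can promote cell death, was dim without treatment. It had intensities of 1960, 2142, 2158 and 3003 on the IFNa arrays, against 46.5, 45.1 and 49.9 on the untreated arrays. The untreated values lay between the 10.7th and 15.6th percentiles of the genes on their own array, and IFNa replicate 4 stood above the other 3. The log2 change was 5.60 ± 0.16 (48.5-fold, 37.7 to 62.3, adjusted p = 2.45e-07 by limma).

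Ifit3b, the copy of Ifit3, varied most under treatment. It had intensities of 525, 975, 797 and 378 on the IFNa arrays, against 21.7, 18.7 and 20.6 on the untreated arrays. IFNa replicate 4, the highest array for Ifit1, Ifit2 and Ifit3, was the lowest for Ifit3b, and the highest IFNa array was 2.58 times the lowest. The log2 change was 4.95 ± 0.28 (30.9-fold, 19.9 to 48.0, adjusted p = 1.10e-05 by limma). All untreated values of Ifit3b lay below the 5th percentile of the genes on their own array, so the size of its rise depends on how dim values are treated. With values raised to the 5th percentile of each array the change was 4.55, and with the 20th percentile it was 3.24, and the call held in both.

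**Figure D2:**
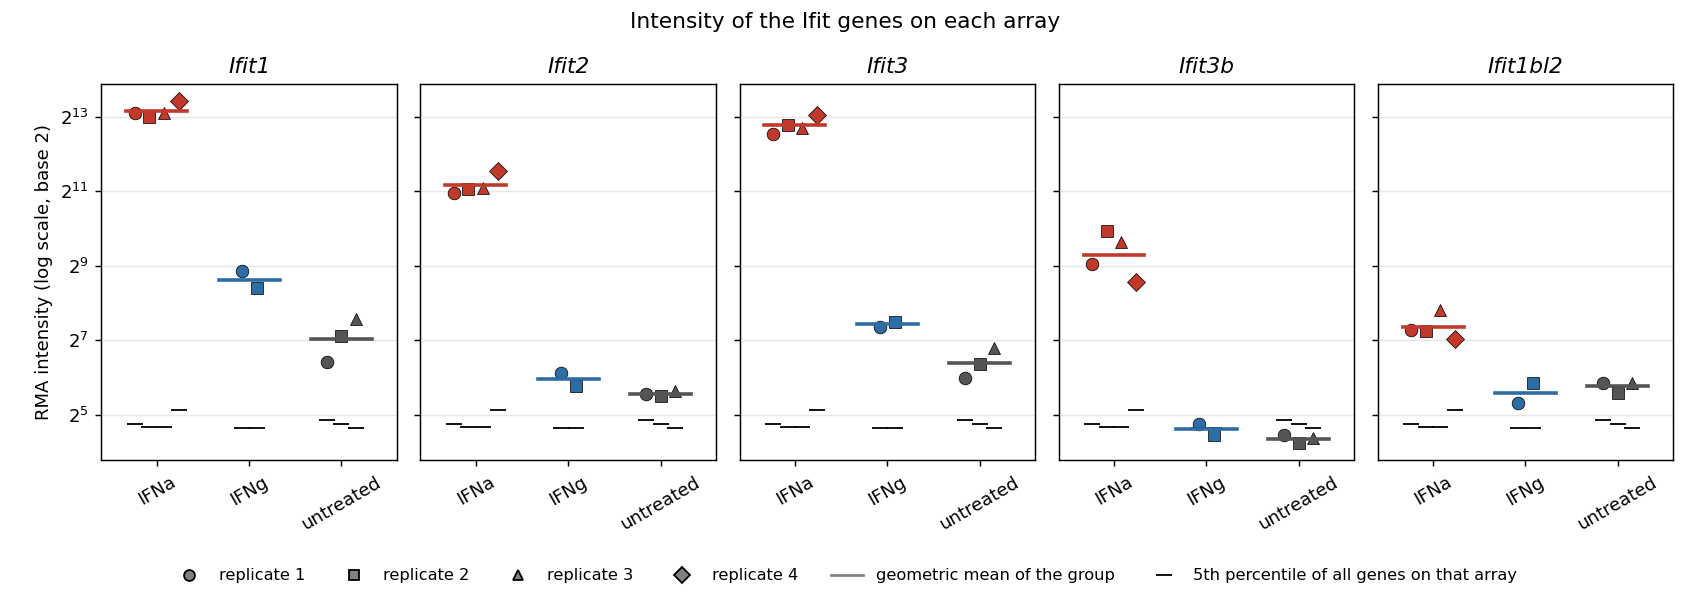
RMA intensity (vertical axis, log scale of base 2) of Ifit1, Ifit2, Ifit3, Ifit3b and Ifit1bl2 on each array of the IFNa (red), IFNg (blue) and untreated (grey) groups. Symbols mark the replicate, long lines the geometric mean of the group, and short black lines the 5th percentile of all genes on that array. IFNa arrays of Ifit1 lie between 8140 and 10989 and its IFNg arrays at 463 and 335, while untreated Ifit3b lies below the short black lines.

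After IFNg, 1 of the 4 genes passed the test. Ifit1 was higher by 3.01-fold, and Ifit3, Ifit2 and Ifit3b did not pass. Over all genes, 1.24% were called higher after IFNg. Both IFNg arrays lay above all 3 untreated arrays for each of the 4 genes, an order seen in 12.3% of all genes. The median change over the 4 was a log2 of 0.72, against -0.06 over all genes.

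Ifit1 had intensities of 463 and 335 on the IFNg arrays, against 85.1, 139 and 189 on the untreated arrays. The groups did not overlap, but on the log scale the gap between the lower IFNg array and the highest untreated array was smaller than the spread among the untreated arrays. The log2 change was 1.59 ± 0.30 (95% interval of the fold 1.89 to 4.79, adjusted p = 0.0333 by limma). The call was lost without IFNg replicate 1 (adjusted p = 0.447) or 2 (0.133), IFNa replicate 1, 2 or 3 (0.0604 to 0.0684) or untreated replicate 2 (0.114). It was also lost under quantile normalization (0.0549), median centring (0.0542) and a fit of the IFNg and untreated arrays alone (0.199), with the change between 1.28 and 1.86 throughout.

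Ifit3 had intensities of 164 and 179.5 on the IFNg arrays, against 63.1, 81.9 and 110.2 on the untreated arrays. The IFNg arrays were close together and above the untreated range. The log2 change was 1.05 ± 0.23 (2.07-fold, 1.45 to 2.95), with an unadjusted p of 0.00111 and an adjusted p of 0.0710 by limma. It passed without IFNa replicate 4 (adjusted p = 0.0482), without untreated replicate 3 (0.0178) and without both arrays of narrow range (0.0315).

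Ifit2 had intensities of 69.7 and 54.8 on the IFNg arrays, against 46.5, 45.1 and 49.9 on the untreated arrays. The IFNg arrays lay just above the untreated ones, with a log2 change of 0.39 ± 0.19 (1.31-fold, 0.972 to 1.77, adjusted p = 0.654 by limma). Ifit3b had intensities of 26.9 and 22.0 on the IFNg arrays, against 21.7, 18.7 and 20.6 on the untreated arrays. Its change was 0.26 ± 0.34 (1.20-fold, 0.707 to 2.03, adjusted p = 0.825). In array intensity, the upper ends of these intervals leave room for a rise of at most 1.77-fold for Ifit2 and 2.03-fold for Ifit3b under this model. How intensity follows the amount of RNA in probe sets this dim was not tested, so a larger rise of RNA could go unseen. Most IFNg and untreated values of both genes lay below the 20th percentile of their array, and with values raised to that percentile the changes were -0.03 for Ifit2 and -0.12 for Ifit3b. With values raised to the 5th percentile the change of Ifit3b was -0.05.

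Set directly against IFNg, all 4 genes were higher after IFNa, and they took places 2, 3, 4 and 5 of 19752 genes, behind Rsad2. Over all genes, 0.44% were called higher after IFNa in this comparison, and 5 genes reached 16-fold. Every IFNa array lay above both IFNg arrays for each of the 4, an order seen in 12.8% of all genes. The doses differed, 10000 U of IFNa and 8000 U of IFNg, and units of the 2 interferons were not set on a common scale here, so kind and dose of interferon cannot be told apart.

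Ifit3 differed most, with a log2 difference of 5.34 ± 0.22 (40.6-fold, 29.0 to 56.9, adjusted p = 5.12e-06 by limma). Ifit2 followed with 5.21 ± 0.18 (36.9-fold, 27.8 to 49.1, adjusted p = 2.65e-06). Ifit3b was higher by 4.69 ± 0.32 (25.8-fold, 15.6 to 42.5, adjusted p = 1.58e-04), and by 3.36 with values raised to the 20th percentile. Ifit1, the only member called after IFNg, had the smallest difference of the 4, 4.53 ± 0.28 (23.1-fold, 14.8 to 35.8, adjusted p = 7.60e-05). The order of the group means was thus IFNa, then IFNg, then untreated for each gene. The difference between IFNg and untreated passed the test for Ifit1 alone. A call for Ifit1 and none for Ifit3 (adjusted p = 0.0333 and 0.0710 by limma) does not show that these genes differ in their response to IFNg.

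**Figure D3:**
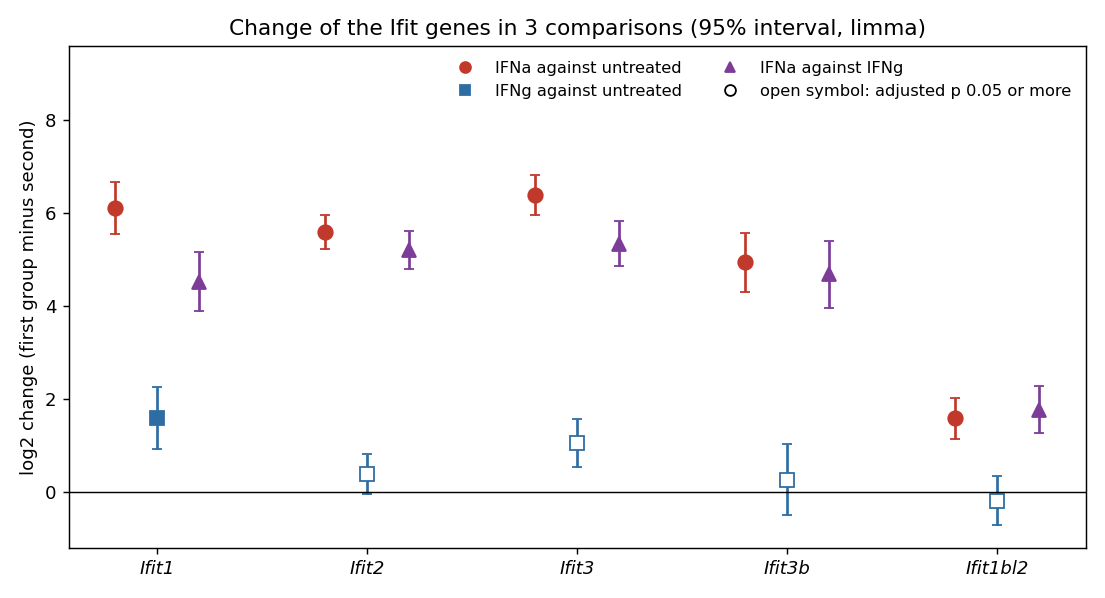
Log2 change of Ifit1, Ifit2, Ifit3, Ifit3b and Ifit1bl2 (vertical axis) with 95% intervals from limma, for IFNa against untreated (red circles), IFNg against untreated (blue squares) and IFNa against IFNg (purple triangles). Open symbols have an adjusted p of 0.05 or more. After IFNa the 4 genes lie between 4.95 and 6.39, and after IFNg only the symbol of Ifit1, at 1.59, is filled.

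Whether the members changed by equal amounts was asked from the ratio of a pair of genes within each array. In it a factor common to the array cancels, but a narrower range of intensities does not. The size of a ratio depends on the probe sets, and only its difference between groups was read. The 6 pairs in 3 comparisons gave 18 exact permutation tests, two-sided, whose smallest possible p is 0.0571 for 4 against 3 arrays, 0.133 for 4 against 2 and 0.2 for 2 against 3. None could therefore reach 0.05, and every adjusted p was 0.257 or more. In all 6 pairs, untreated replicate 1, an array of narrow range, held the untreated log2 ratio smallest in size. It was 0.87 for Ifit1 to Ifit2, against 1.63 and 1.92 on the other untreated arrays. For Ifit2 to Ifit3 it was -0.44, against -0.86 and -1.14. The size of each difference from untreated thus depends in part on that array.

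The ratio of Ifit3 to its copy was higher on every IFNa array than on any untreated array. The log2 ratio of Ifit3 to Ifit3b was 2.85 to 4.48 on the IFNa arrays, against 1.54 to 2.42 on the untreated arrays, a difference of 1.45 (exact permutation p = 0.0571, n = 4 and 3). IFNa replicate 4 held the highest ratio. The difference was 3.08 with values raised to the 20th percentile. The ratio of Ifit2 to Ifit3 was lower on every IFNa array than on any untreated array. The log2 ratio of Ifit2 to Ifit3 was -1.71 to -1.49 on the IFNa arrays, against -1.14 to -0.44 on the untreated arrays, a difference of -0.79 without overlap (exact permutation p = 0.0571, n = 4 and 3), and of -1.21 with values raised to the 20th percentile.

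After IFNg, the largest difference from untreated among the 3 pairs without the dim Ifit3b was that of Ifit1 to Ifit2. This log2 ratio was 2.61 and 2.73 on the IFNg arrays, against 0.87 to 1.92 on the untreated arrays, a difference of 1.20 (exact permutation p = 0.2, n = 2 and 3). It was 1.87 to 2.16 on the IFNa arrays, below both IFNg arrays (difference of IFNa from IFNg -0.68, exact permutation p = 0.133, n = 4 and 2). The ratio of Ifit1 to Ifit3 likewise was 0.22 to 0.55 on the IFNa arrays, against 0.90 and 1.50 on the IFNg arrays, a difference of -0.82 (exact permutation p = 0.133, n = 4 and 2). Relative to Ifit2 and Ifit3, Ifit1 was thus lower on every IFNa array than on either IFNg array. These 2 ratios share the values of Ifit1. On the IFNa arrays Ifit1 lay at the 99.6th to 99.9th percentiles of all genes and Ifit3 at the 99.2nd to 99.7th. Ifit2 lay at the 23.2nd and 17.5th percentiles on the IFNg arrays. Whether array signal is compressed at such high or low values was not tested.

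**Figure D4:**
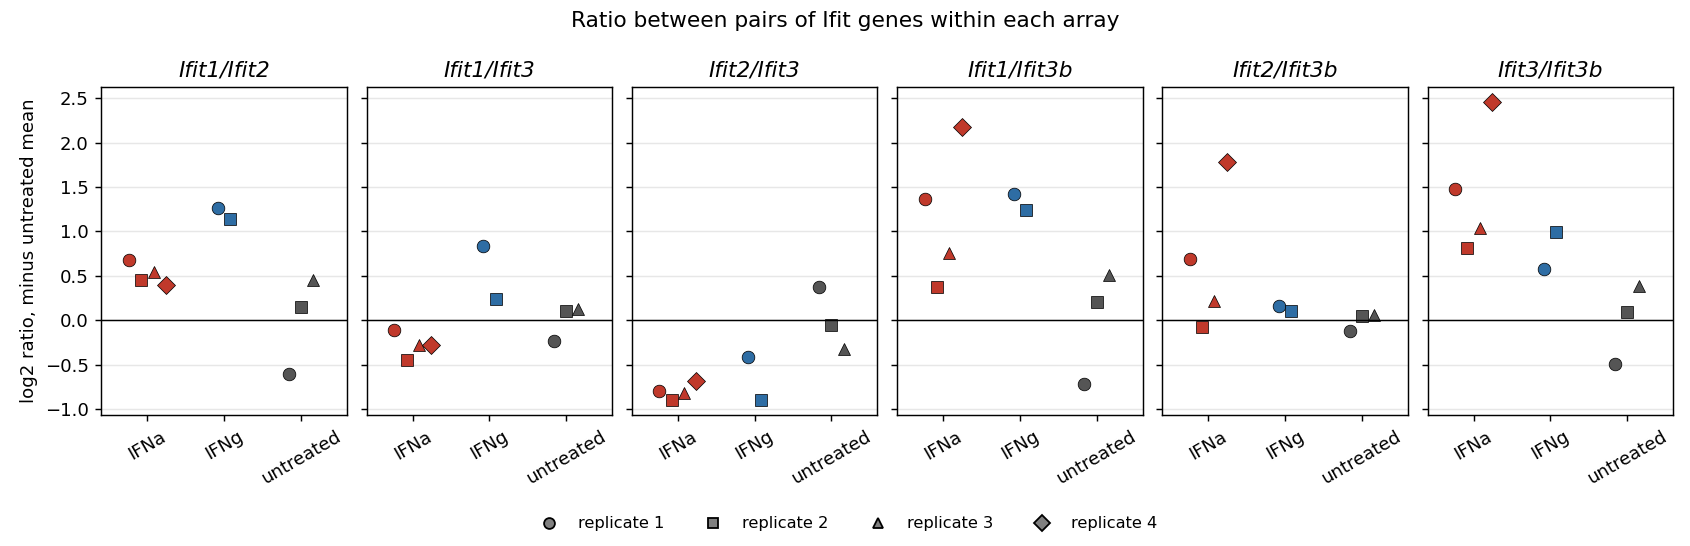
Log2 ratio of each pair of Ifit genes on each array, minus its mean over the untreated arrays (vertical axis), for the IFNa (red), IFNg (blue) and untreated (grey) groups, with symbols by replicate. In the panel of Ifit1 to Ifit2 both IFNg arrays lie above all IFNa and untreated arrays, and in that of Ifit2 to Ifit3 all IFNa arrays lie below all untreated arrays.

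The genes whose pattern was most like each member were found by the root-mean-square difference of log2 values over the 9 arrays, each gene centred on its own untreated mean. The nearest gene to Ifit1 was Ifit3, at 0.366, and the reverse held too. The next for Ifit1 were Mx1 (0.669), a GTPase of the antiviral Mx family, Rsad2 (0.696), which encodes the radical-SAM enzyme viperin, and Ifit2 (0.714). Ifit3 was followed by Rsad2 (0.618), Ifit2 (0.648) and Mx1 (0.887). Ifit2 was nearest to Rsad2, at 0.294, ahead of Ifit3b (0.644), Ifit3 (0.648) and Mx1 (0.687). Ifit3b was nearest to Ifit2 (0.644), then to Mx2 (0.689), Ms4a4c (0.702), a membrane protein gene, and Rsad2 (0.733). Ifit3 stood 10th and Ifit1 11th for Ifit3b, so by this measure the copy lay nearer to Ifit2 than to Ifit3. The measure is led by the size of the IFNa change, which was 5.68 for Rsad2, 5.14 for Mx1, 4.98 for Mx2 and 4.12 for Ms4a4c. After IFNg these 4 genes changed by 0.29, 1.47, 1.41 and 0.68, and none passed the test. Mx1 after IFNg passed in 9 of 24 alternatives, among them both filters on dim genes (adjusted p = 0.0347 and 0.0277), a replicate block by the numbers in the sample titles, the title block (0.0285), and the fits without untreated replicate 1 or 3 (0.0292 and 0.0127). Mx2 passed in 8, among them the same filters (0.0331 and 0.0268), the title block and the like block by the numbers in the sample descriptions (0.0111 and 0.0341) and the fit without untreated replicate 3 (0.00402). Ms4a4c passed in 2, the title block (0.0483) and array weights (5.22e-05).

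Along chromosome 19 the family stands in 1 row, in RefSeq order Ifit2, Ifit3, Ifit1bl1, Ifit3b, Ifit1bl2 and Ifit1. Ifit1bl1 had no probe set of its own. Ifit1bl2, an Ifit1-like gene, had intensities of 155, 153, 223 and 130.2 on the IFNa arrays, 39.6 and 57.1 on the IFNg arrays, and 57.3, 47.7 and 57.9 on the untreated arrays. The IFNa arrays stood above all others, and the IFNg and untreated arrays overlapped. It rose after IFNa by a log2 of 1.58 ± 0.20 (2.99-fold, adjusted p = 0.00169 by limma) and was higher after IFNa than after IFNg by 1.77 ± 0.22 (adjusted p = 0.00531, or 0.107 without IFNg replicate 1). After IFNg it changed by -0.18 ± 0.24 (adjusted p = 0.822). One of its start windows lies on the strand opposite to that of Ifit1 and shares 245 bases with the Ifit1 window, including both ISRE core matches, 70 to 61 and 51 to 42 bases before its own start.

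The genes on either side were read next. Of the 10 nearest measured protein-coding genes on each side, 1 of 20 rose after IFNa, none fell, and the median change was a log2 of 0.09. Over all genes, 1.79% were called higher after IFNa and 1.24% after IFNg. Of the 19752 genes, 169 were called lower after IFNa and 22 after IFNg. The gene that rose was Pcgf5, which encodes a Polycomb group protein, by 1.63 ± 0.18 (3.10-fold, adjusted p = 6.50e-04 by limma). Between it and Ifit1 stood Slc16a12, Pank1, Kif20b, Htr7, Rpp30 and Ankrd1, none of which passed. After IFNg 0 of 20 passed by limma, with 3 at an unadjusted p under 0.05, and the largest changes were Rpp30 (1.09 ± 0.31, adjusted p = 0.230) and Fas (1.04 ± 0.24, adjusted p = 0.0883), a death receptor. Fas passed in 6 of 24 alternatives, among them the title and description blocks (0.0174 and 0.0218) and the fit without IFNa replicate 4 (0.00579), and Rpp30 in 3, among them the title block (0.0169) and the fit without untreated replicate 3 (0.0436). Without the same array Pcgf5 passed after IFNg too (0.0316). Between IFNa and IFNg 0 of 20 passed, with 2 at an unadjusted p under 0.05. The genes next to the family, Lipa on one side and Slc16a12 on the other, changed after IFNa by 0.29 ± 0.15 and 0.13 ± 0.19.

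**Figure D5:**
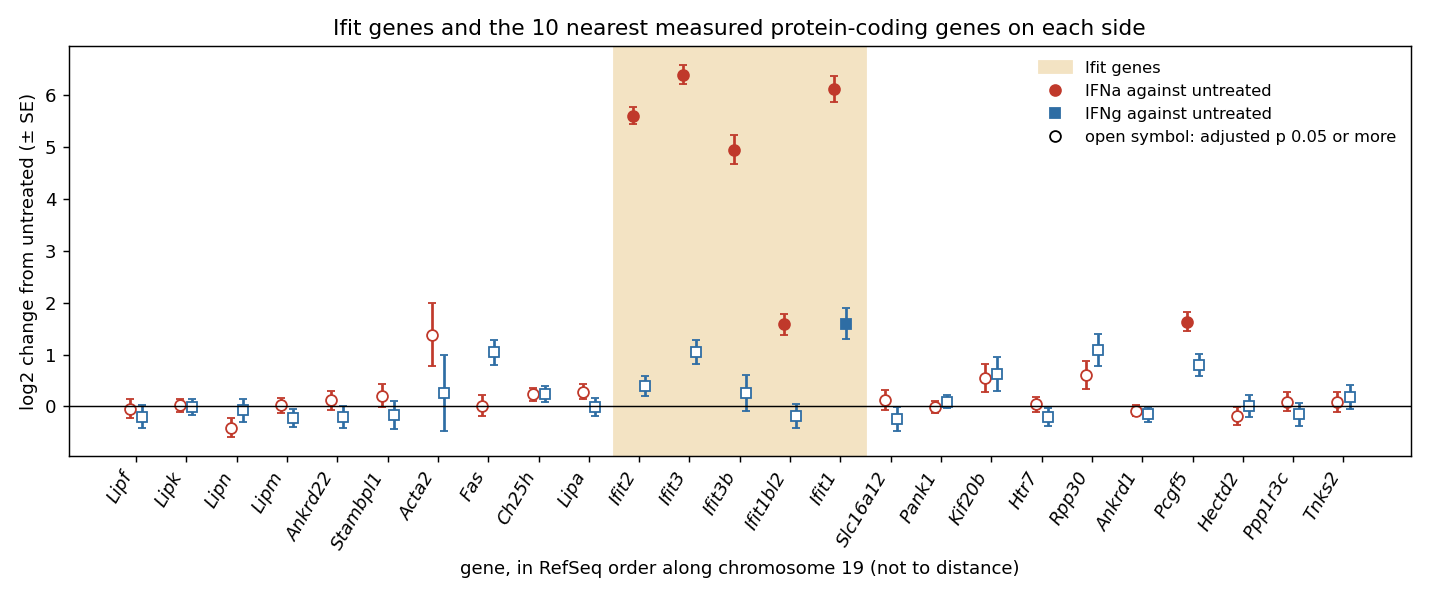
Log2 change from untreated with its standard error (vertical axis) after IFNa (red circles) and IFNg (blue squares) for the Ifit genes (shaded) and the 10 nearest measured protein-coding genes on each side, in RefSeq order along chromosome 19 and not to distance. Open symbols have an adjusted p of 0.05 or more. Outside the shaded genes only Pcgf5, at 1.63 after IFNa, is filled.

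The signalling genes upstream of the family were read from lists, as log2 changes in the same model. The list of the type I receptor, its kinases and ISGF3 had a median change of 0.06 after IFNa and 0.23 after IFNg, that of the IFNg receptor route 0.35 and 0.10, and that of other interferon regulatory factors 0.02 and 0.21. The medians were 1.85 and 0.96 for partners in RNA sensing, 0.12 and 0.33 for cap enzymes, and 2.00 and 2.40 for brakes, against -0.02 and -0.06 over all genes. The share of all genes called higher, to set beside each count of list genes that rose, was 1.79% after IFNa and 1.24% after IFNg. Of 6 measured genes for the type I receptor, its kinases and ISGF3, only Stat2, an ISGF3 subunit, rose. It rose after IFNa by 3.07 ± 0.15 (adjusted p = 3.68e-06 by limma) and after IFNg by 2.50 ± 0.18 (adjusted p = 1.21e-04). Irf9, the DNA-binding subunit, changed by 0.88 ± 0.22 after IFNa (adjusted p = 0.0801) and 0.79 ± 0.26 after IFNg (0.372). After IFNa it passed in 7 of 24 alternatives, among them quantile normalization (0.0132), the description block (0.0419) and the fits without untreated replicate 1 or 3 (0.0318 and 0.0412). The kinase gene Tyk2 changed by -0.17 ± 0.11 after IFNa and the receptor gene Ifnar2 by 0.33 ± 0.16 after IFNg, and neither passed.

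Of 4 measured genes of the IFNg receptor route, Irf1, a factor induced through GAS sites, rose after IFNa by 2.39 ± 0.21 (adjusted p = 1.65e-04 by limma) and after IFNg by 3.50 ± 0.26 (adjusted p = 1.25e-04). Irf1 had more than 1 probe set, and its dimmer one gave 0.51 after IFNa, which did not pass (adjusted p = 0.206). The kinase gene Jak2 rose after IFNa by 1.10 ± 0.22 (adjusted p = 0.0318), a call lost without IFNa replicate 1, 2 or 3, IFNg replicate 1 or 2 or untreated replicate 2 (0.0544 to 0.0962), and changed by 0.64 ± 0.27 after IFNg (0.560). Ifngr2, a receptor chain, changed by -0.52 ± 0.15 and -0.44 ± 0.18 and did not pass, but it did under quantile normalization (adjusted p = 0.00535 after IFNa and 0.0250 after IFNg) and, after IFNa, without untreated replicate 1 (0.0257).

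Of 5 other interferon regulatory factors, Irf7, which drives interferon genes, rose after IFNa by 3.18 ± 0.28 (adjusted p = 1.65e-04 by limma) and after IFNg by 1.81 ± 0.34 (adjusted p = 0.0333). That second call was lost without either IFNg array, IFNa replicate 1, 2 or 3 or untreated replicate 2 (0.0597 to 0.326), and with the description block (0.0579). Irf8, a factor of the macrophage lineage, rose after IFNg by 1.98 ± 0.18 (adjusted p = 5.32e-04). Irf3 and Irf5 after IFNa (-0.34 ± 0.11 and 0.25 ± 0.18) and Irf2 after IFNg (-0.23 ± 0.17) did not pass.

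Among partners in RNA sensing, 5 of 8 measured genes rose after IFNa and 2 of 8 after IFNg, against 1.79% and 1.24% of all genes. After IFNa these were Eif2ak2 (2.92 ± 0.24), the kinase that stops translation on double-stranded RNA, Ddx58 (2.62), Ifih1 (2.44 ± 0.19) and Dhx58 (2.22 ± 0.21), the RIG-I-like receptors, and Trim25 (1.47). After IFNg, Eif2ak2 rose by 2.15 ± 0.29 (adjusted p = 0.00527) and Sting1, a sensor adaptor for DNA, by 2.16 ± 0.34 (adjusted p = 0.0142), and Dhx58 changed by 1.09 ± 0.25 (adjusted p = 0.0923, or 0.0248 under quantile normalization and 0.0351 with the title block). Without either IFNg array the call of Eif2ak2 (0.0668 and 0.0904) and that of Sting1 (0.105 and 0.211) were lost. Set directly against IFNg, Ddx58 (1.62 ± 0.29, adjusted p = 0.0325 by limma) and Ifih1 (1.50 ± 0.21, adjusted p = 0.00940) were higher after IFNa, and Sting1 (-1.89 ± 0.33, adjusted p = 0.0263) was lower. These calls were lost without IFNg replicate 1 or 2 (0.126 to 0.472). That of Sting1 was also lost without IFNa replicate 1, 2 or 3 (0.0640 to 0.0782), and that of Ddx58 without any 1 IFNa array (0.0593 to 0.102), under median centring (0.0681) and with the title and description blocks (0.118 and 0.0782).

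Genes of the cap and of eIF3, with which IFIT proteins interact, did not pass in this model. None of 7 measured cap enzymes and cap-binding genes was called by limma, with 2 at an unadjusted p under 0.05 after IFNa and 1 after IFNg, and changes of -0.25 to 0.61 after IFNa and -0.02 to 0.71 after IFNg. Rngtt, the capping enzyme, changed by 0.61 ± 0.24 and 0.71 ± 0.28, and Ncbp1, a cap-binding subunit, by 0.58 ± 0.27 and 0.53 ± 0.33. Pcif1, which methylates an adenosine next to the cap, changed by -0.25 ± 0.11 after IFNa and Ncbp3 by 0.34 ± 0.32 after IFNg. After IFNa, the description block called Rngtt (0.98, adjusted p = 0.0212) and Ncbp1 (0.99, 0.0432), and array weights called these and Pcif1 (0.00194, 0.00444 and 0.0252). None of 11 measured eIF3 subunits was called, with 0 and 1 at an unadjusted p under 0.05, and their median changes were 0.13 after IFNa and 0.34 after IFNg. The smallest p-values belonged to Eif3b (0.36 ± 0.22), Eif3m (0.56 ± 0.37) and Eif3a (0.16 ± 0.17) after IFNa, and to Eif3a (0.58 ± 0.20), Eif3d (0.47 ± 0.23) and Eif3k (0.58 ± 0.29) after IFNg.

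None of 13 measured type I interferon genes was called after either interferon, with 0 at an unadjusted p under 0.05 after IFNa and 2 after IFNg. Their median changes were 0.06 and -0.10. The smallest p-values after IFNa were those of Ifnab (0.23 ± 0.15), Ifna16 (-0.31 ± 0.20) and Ifne (0.11 ± 0.10), and after IFNg those of Ifna16 (-0.58 ± 0.24), Ifna9 (-0.45 ± 0.19) and Ifna14 (-0.35 ± 0.22). Ifna16 passed after IFNa with the description block (-0.63, adjusted p = 0.0455).

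Of 3 measured brakes on interferon signalling, 2 rose after each interferon. Usp18, which blocks the type I receptor, rose by 4.67 ± 0.27 after IFNa (adjusted p = 1.10e-05 by limma) and by 2.40 ± 0.32 after IFNg (adjusted p = 0.00545), the second call being lost without either IFNg array (0.0638 and 0.0967). Socs1, which blocks JAK kinases, rose by 2.00 ± 0.27 after IFNa (adjusted p = 0.00296) and by 3.58 ± 0.33 after IFNg (adjusted p = 5.12e-04). Socs3 changed by 0.69 ± 0.32 after IFNa (0.445) and 1.76 ± 0.38 after IFNg (0.0664). After IFNg Socs3 passed in 9 of 24 alternatives, among them the title and description blocks (0.00340 and 0.00385) and the fit without IFNa replicate 4 (0.00431). Set beside the Ifit genes, Usp18 after IFNa changed by nearly as much as Ifit3b. After IFNg, Socs1, Irf1, Stat2, Usp18, Sting1, Eif2ak2, Irf8, Irf7 and Socs3 each changed by more than Ifit1 (1.59). Of these, Socs3 did not pass. Compared directly between IFNa and IFNg, Usp18 (2.27 ± 0.31, adjusted p = 0.00675) was higher after IFNa, a call lost without either IFNg array (0.0995 and 0.133), and Irf8 (-2.08 ± 0.17, adjusted p = 5.06e-04) was lower. With Ddx58, Ifih1 and Sting1 above, these were the genes of the pathway lists called between the interferons. Median centring ended the calls of Jak2 after IFNa (0.0525) and Irf7 after IFNg (0.0572). A fit of the compared groups alone ended these (0.0677 and 0.203) and, after IFNg, those of Eif2ak2 (0.0780), Sting1 (0.0587), Usp18 (0.0815) and Gata6 (0.0628).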

How the data were processed

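Total RNA of sorted macrophages was hybridised to 9 single-colour Affymetrix arrays. The deposited values are intensity on a linear scale, 1 per probe set, made by the authors with Affymetrix Power Tools and RMA per the submitters' processing notes, with no version. Which arrays were normalized together is not given in the sources used here. Of 24922 probe sets, 21425 carried exactly 1 gene symbol in the platform annotation, and the brightest of these per gene over the 9 arrays left 19752 genes. Log2 values were fitted with limma 3.58.1 in R 4.3.3, as 3 group means with eBayes (residual degrees of freedom 6, prior 3.62), which takes the 2 IFNg arrays to vary as the other groups do. Two-sided p-values had a Benjamini-Hochberg adjustment across the 19752 genes. The script was tested on simulated data. Arrays give no counts, and their number limits the precision.

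Members and lists were chosen with earlier results of these data known. Named beside the members were the 3 genes of smallest p per pathway list and comparison with untreated, further list genes that passed, neighbours that passed, and the 4 genes of most like pattern. The neighbours Fas, Rpp30, Lipa and Slc16a12, and the markers Gata6, Tcf4, Adgre1, Icam2, Timd4 and Cebpb, were named after their values were seen. Timd4 and Cebpb were read in the main fit alone. Promoter windows came from RefSeq (GRCm38.p6); all 4 members matched. Alternatives covered the variance model, filters on dim genes, normalization, array weights, replicate blocks, probe set choice, floors, call rules and left-out arrays. Other tools were Python 3.11.15, pandas 2.3.3, numpy 2.4.6, scipy 1.17.1 and matplotlib 3.10.9.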

Additional observations from a re-analysis of the deposited data

Results flagged for a closer look

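Among 57 sets of IFNa values checked for a single array far from the other 3, chance alone would mark about 1 in 20, and 2 were marked, neither of them an Ifit gene or ratio. Rsad2, the gene nearest to Ifit2 in pattern, had intensities of 8265, 8058, 8128 and 10415 on the IFNa arrays, so that the gap of replicate 4 to the next array was 0.9015 of the whole log2 range. On the same array Ifit1, Ifit2 and Ifit3 were also highest. Socs3 had intensities of 837, 797, 877 and 1971 on the IFNa arrays, with replicate 4 again apart by 0.8947 of the range. This was the IFNa array of narrow intensity range.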

How the results depend on the processing

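After IFNa against untreated and against IFNg, all 4 members kept their direction and their call in each of 26 alternatives (25 for Ifit3b, which the filter on the dimmest 50% of genes removed). The log2 change from untreated ran from 5.72 to 6.38 for Ifit1, 5.11 to 5.67 for Ifit2, 6.10 to 6.60 for Ifit3 and 3.24 to 5.44 for Ifit3b. After IFNg, where 1 member was called, 0 were called under quantile normalization, median centring, a fit of the compared groups alone, a replicate block by the description numbers, or an adjusted p under 0.01. The number was 2 without the dimmest 50% of genes, with a replicate block by the title numbers, with a floor at the 20th percentile or without both arrays of narrow range, 3 with array weights, and 0 to 2 with 1 array left out. Ifit1 after IFNg did not pass at 1.54 (quantile normalization), 1.63 (median centring), 1.59 (compared groups alone, or the stricter p) and 1.42 (description block), and ran from 1.28 to 1.86 with 1 array left out. Ifit3 after IFNg passed at 1.05 (without the dimmest 50%), 1.06 (array weights), 1.16 (title block), 0.98 (20th percentile floor) and 0.85 (without both arrays of narrow range), and ran from 0.85 to 1.25 with 1 array left out. Ifit2 after IFNg passed with array weights (0.45) and turned with the 20th percentile floor (-0.033), and Ifit3b turned with the 5th and 20th percentile floors (-0.047 and -0.12). Without IFNg replicate 1, Ifit1bl2 after IFNg turned to 0.078, and its range with 1 array left out was -0.45 to 0.078. Values for the other named genes were recomputed after seeing the data. Changes near 0 turned for Icam2 after IFNa with array weights (0.038), for Adgre1 and Icam2 after IFNg under quantile normalization (-0.0079 and -0.087) and without untreated replicate 2 (-0.014 and -0.036), and for Rsad2 after IFNg with array weights (-0.027) and without untreated replicate 1, alone or with IFNa replicate 4 (-0.032). With 1 array left out these 3 ran from -0.014 to 0.033, from -0.036 to 0.12 and from -0.032 to 0.48.

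Ratio differences moved by more than their spread with the 20th percentile floor. After IFNa they were then 1.01 for Ifit1 to Ifit2, 2.88 for Ifit1 to Ifit3b, -1.21 for Ifit2 to Ifit3, 1.87 for Ifit2 to Ifit3b and 3.08 for Ifit3 to Ifit3b, after IFNg 1.62 for Ifit1 to Ifit2 and -1.01 for Ifit2 to Ifit3, and between IFNa and IFNg 1.17, 1.78 and 1.99 for Ifit1, Ifit2 and Ifit3 to Ifit3b. With the 5th percentile floor Ifit2 to Ifit3b after IFNg was 0.44, and under quantile normalization Ifit1 to Ifit2 between IFNa and IFNg was -0.44.

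Counts over all genes were less stable. The 354 genes higher after IFNa became 587 and 726 with the title and description blocks and 2333 with array weights, which ran from 0.121 to 5.07 over the arrays. Under quantile normalization 500 genes were higher and 421 lower after IFNa, against 354 and 169. The 245 genes higher after IFNg became 112 (compared groups alone), 128 (stricter p), 589 (title block), 2735 (array weights) and 79, 90 and 138 without IFNg replicate 1, IFNg replicate 2 and untreated replicate 2. The 87 higher after IFNa than after IFNg became 160 (quantile normalization), 250 (without both arrays of narrow range), 614 (array weights), 42 (stricter p) and 21, 24, 53 and 49 without IFNg replicate 1 or 2 or IFNa replicate 1 or 3.

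Whether the numbers in the titles pair the samples could not be settled from these values. Deviations from a group mean are tied to each other within the group. The arrays of narrow range, IFNa replicate 4 and untreated replicate 1, correlated at 0.61 although their numbers differ. Over 3 same-numbered IFNa and untreated arrays the deviations from the group means correlated at -0.21 to 0.60, and 1 of 3 IFNa arrays correlated best with its own number. Blocking by number changed no call of an Ifit gene after IFNa. Its other effects on the calls of named genes are given beside those genes. After IFNa, array weights also called Irf3, Irf9, Ifngr2, Eif3a, Eif3b, Eif3m, Ifnab and Ifna16. After IFNg, they also called Irf2, Irf9, Ifngr2, Jak2, Dhx58, Rngtt, Eif3a, Eif3d, Ifna9, Ifna14 and Ifna16. The same held after IFNg for Socs3, Mx1, Mx2, Fas, Rpp30 and Pcgf5. No probe set carried the symbol of a member beside others, so that alternative gave no value. The cause of these shifts was not tested. Ifit3b lay near the bottom of the untreated arrays, so the size of its rise is the least certain of the 4, and the IFNg results rest on 2 arrays.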

Other observations

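The spread between arrays differed among the members, and so did their place on the array. Across the 3 untreated arrays the standard deviation of log2 intensity was 0.58 for Ifit1, 0.40 for Ifit3, 0.11 for Ifit3b and 0.08 for Ifit2. The untreated values lay between the 24.4th and 53.2nd percentiles of all genes for Ifit1, the 16.4th and 39.0th for Ifit3, the 2.33rd and 3.31st for Ifit3b and the 10.7th and 15.6th for Ifit2, so the small spreads belong to the dimmest probe sets and are not read as steadier expression. Both Ifit1 and Ifit3 were lowest in replicate 1 and highest in replicate 3. Across the 4 IFNa arrays the order was another, with 0.61 for Ifit3b, 0.27 for Ifit2, 0.21 for Ifit3 and 0.19 for Ifit1. Ifit1bl2 shared with Ifit3b the lowest IFNa value on the array of replicate 4, on which Ifit1, Ifit2 and Ifit3 were highest.

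Rsad2, whose pattern lay nearest to that of Ifit2, was spread more widely without treatment. It had intensities of 207 and 207 on the IFNg arrays, against 107, 217 and 206 on the untreated arrays, so the groups overlapped, whereas both IFNg arrays of Ifit2 (69.7 and 54.8) lay above all its untreated arrays (46.5, 45.1 and 49.9). Neither gene passed the test after IFNg.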
